A study of Bos taurus and Bos indicus with 12 samples.

Results

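The comparison described here is that of tick-infested with tick-naive Holstein-Friesian cattle, a taurine dairy breed, in whole skin taken with a biopsy punch. It comprises 6 of the 12 arrays of the series, chosen by their titles: 3 infested and 3 naive Holstein-Friesian animals, with 1 animal and 1 array each. The infested animals were females of 6 months that had passed through successive heavy challenges with the cattle tick R. microplus, and their biopsies were punched where young larvae were attached. The naive animals were females of 12 months that had never met the tick. The other 6 arrays came from infested Brahman animals of 6 months and naive Brahman animals of 18 months, an indicine (zebu) breed. Infested animals were therefore younger than naive animals in both breeds, and within Holstein-Friesian cattle an effect of age and an effect of infestation cannot be told apart. The body site of the biopsies is not given in the sources used here.

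Tick mouthparts lodge in the dermis, and tick saliva carries molecules known to act on clotting, vessel tone, complement and leukocytes. Skin at a bite is known to take in blood leukocytes, to open its small vessels and to rebuild dermal matrix and epidermis. Whole skin also holds sebaceous and sweat glands, hair follicles, fat, nerves and muscle, so a level in a biopsy is an average over all of them, and fewer cells of a type cannot be told apart from less RNA per cell.

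All values below are RMA log2 expression values, where a difference of 1 is a doubling of the normalized signal. The arrays are numbered as in the labels, and values of a group are given in the order of arrays 1, 2 and 3. Array medians ranged from 6.58 to 6.73 log2 over the series. The keratins KRT5, KRT14 and KRT10 of the epidermis and the collagens COL1A1 and COL3A1 of the dermis lay at 13.3 log2 or above in every Holstein-Friesian array. An integrity index, the 5' minus 3' signal of control transcripts, was -2.73, -0.75 and -1.23 log2 for infested animals, against -1.39, -0.82 and -1.17 for naive animals, so infested 1 stood below the other 5. The first principal component of the 6 arrays, with 47.2% of the variance, placed the infested arrays at 26.3 to 47.4 and the naive arrays at -41.7 to -34.9. Infested 1 stood apart on the second, with 28.7%, at 64.5 against -31.7 to 3.72 for the others.

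Of 24016 probe sets, 1206 differed between infested and naive Holstein-Friesian skin in limma's moderated test at an adjusted p under 0.05, which is 5.02% of those tested. They were split into 644 higher (2.68%) and 562 lower (2.34%), or 679 and 392 with each array centred on its median. At least 2-fold differences were met in 391 of the higher and 237 of the lower ones. The 3 infested and 3 naive arrays did not overlap for all 1206, and for 30.3% of all probe sets. The calls depended strongly on single Holstein-Friesian arrays, naive or infested. When naive 1 was left out 157 probe sets passed, with 321 without naive 2 and 576 without naive 3. Of these, 156, 309 and 515 were among the 1206. Without infested 1, 2 or 3 the counts were 1542, 510 and 275, with 889, 457 and 259 among the 1206. Without the 2 arrays of lowest index, infested Brahman 1 and infested Holstein-Friesian 1, the count was 4076, and it was 2022 with the index as a covariate. Below, a gene described as passing in every leave-one-out fit had an adjusted p under 0.05 whichever of the 12 arrays was left out. For most others, the arrays whose loss ended the call are named, with the highest adjusted p among those fits. A further 58 genes are named without these arrays, and each of them failed the threshold in at least 1 leave-one-out fit, with a highest adjusted p between 0.0661 and 0.177.

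Infestation was compared with no infestation in Brahman cattle on separate animals, and that comparison called 19.8% of probe sets. The integrity index was -4.91, -2.56 and -2.07 log2 for infested Brahman animals, against -1.04, -0.85 and -0.92 for naive Brahman animals. Index, age and infestation thus cannot be told apart in Brahman skin, and infested animals were the younger ones in both comparisons. The sign of the difference was the same in Brahman skin for 1179 of the 1206 probe sets (97.8%), against 73.1% of all probe sets. Both breeds called 895 of them with the same sign, which is 74.2% of the Holstein-Friesian calls and 18.8% of the Brahman calls, and 3 with opposite signs. A test of the difference between the breeds called 1 probe set (0.00416% of those tested) at an adjusted p under 0.05 and 1792 at an unadjusted p under 0.05. Infested animals were of 6 months in both breeds, but naive animals were of 12 months in Holstein-Friesian and 18 months in Brahman cattle. A breed difference in this test therefore cannot be told apart from the unequal age gaps. The single call was PCOLCE, which encodes an enhancer of procollagen processing. Its log2 difference between infested and naive animals was 0.84 in Holstein-Friesian and 2.85 in Brahman skin (adjusted p for the difference between breeds = 0.019). That call did not pass with the replicate block described below (adjusted p = 0.1), with the index as a covariate (adjusted p = 0.0666), or without naive 1, 2 or 3, infested 3, naive Brahman 2 or 3 or infested Brahman 2 (adjusted p up to 0.119). The number of breed differences called was 0 with that block and without any 1 of these 7 arrays, but 390 without infested 1, 648 with array weights and 1131 without the 2 arrays of lowest index. The plot of both breeds' differences shows that the 1206 probe sets lie near the diagonal for the most part.

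**Figure D1:**
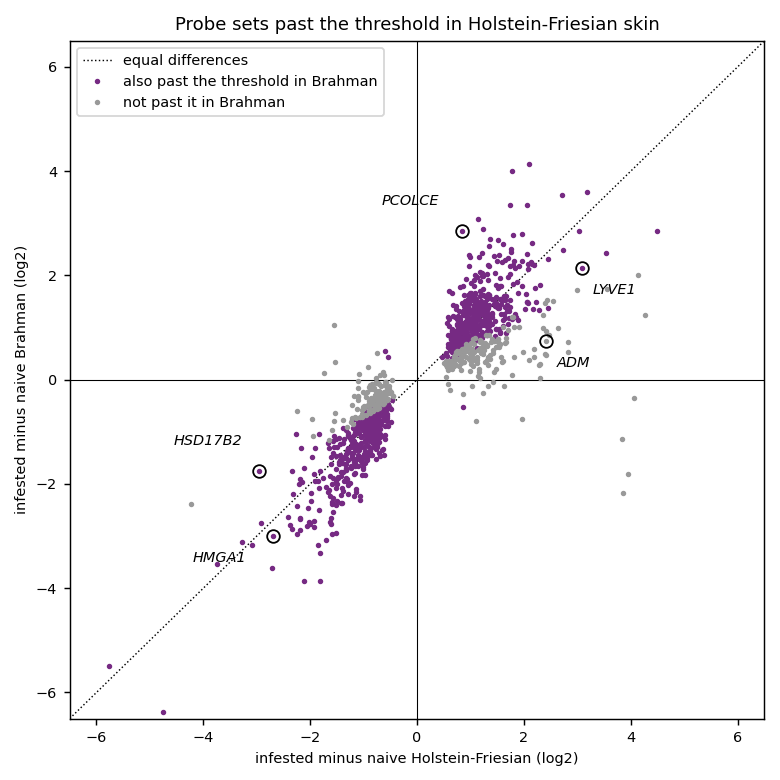
Each point is 1 of the 1206 probe sets past the threshold in Holstein-Friesian skin, with the difference between infested and naive Holstein-Friesian animals on the horizontal axis and that in Brahman animals on the vertical axis (both log2). Of these points 1179 have the same sign on both axes, and PCOLCE lies at 0.84 and 2.85.

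Gene lists were read at 1 probe set per gene, the one with the highest mean signal. Of 9155 genes measured in this way, 547 were called (5.97%), with 287 higher (3.13%) and 260 lower (2.84%), and the median log2 difference over all genes was -0.04. Those shares and that median are the background for each list below. Without the 2 arrays of lowest index the shares were 8.51% higher and 12.3% lower. A replicate block, a term for the label number shared by an infested and a naive array, gave 2.53% and 2.4%. Of 54 lists with 1640 measured genes, 11 had no member called. The bar plot of the lists shows the widest shares called higher for monocyte and macrophage markers and the widest called lower for sebaceous gland markers.

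**Figure D2:**
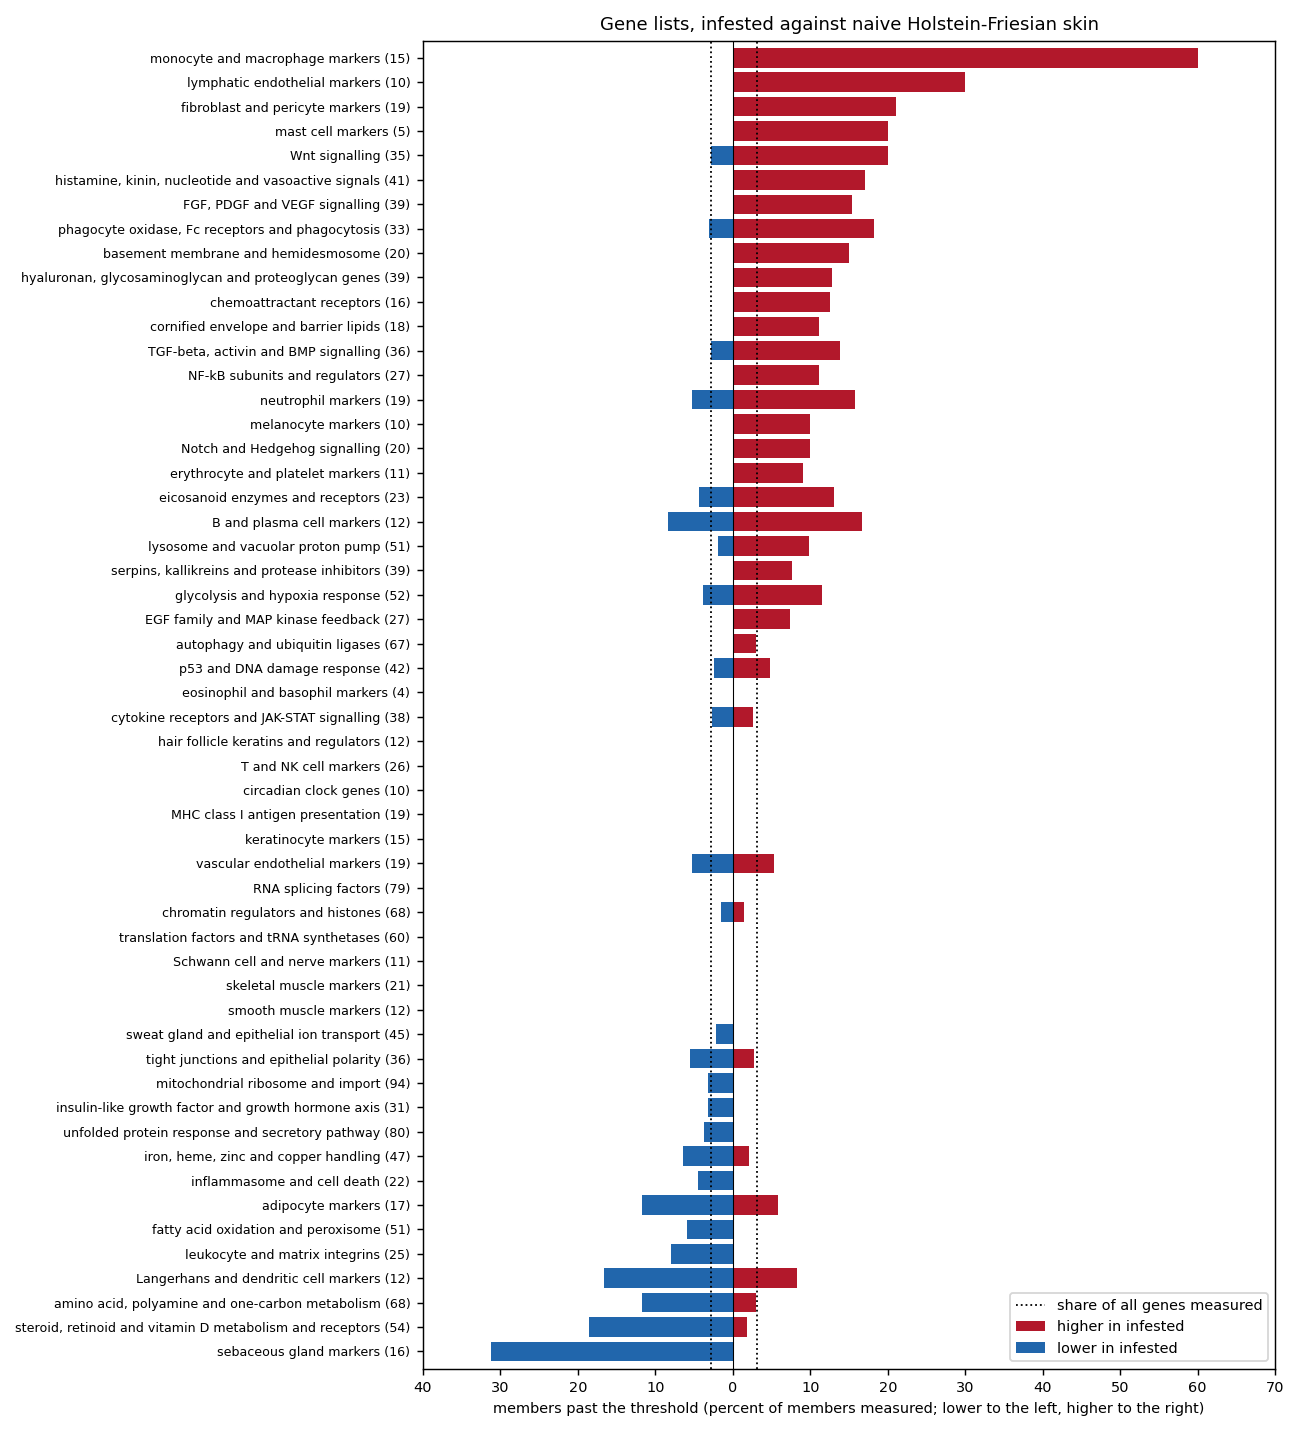
Each row is a gene list with its number of measured members in brackets, and the bars give the percent of members called higher (right) or lower (left) in infested than in naive Holstein-Friesian skin. Dotted lines mark the shares over all 9155 genes, 3.13% higher and 2.84% lower. Monocyte and macrophage markers, with 9 of 15 called higher, and sebaceous gland markers, with 5 of 16 called lower, stand at the ends.

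Most markers of monocytes and macrophages rose in infested skin: of 15 measured, 9 were higher and none lower, with a median log2 difference of 1.55. The count was 4 to 8 when 1 of the 6 Holstein-Friesian arrays was left out, the fewest without naive 1, and 12 without the 2 arrays of lowest index. The list level, each member's value relative to its naive Holstein-Friesian mean, averaged over the list, was 1.67, 1.73 and 1.45 log2 for infested animals, against -0.30, 0.48 and -0.18 for naive animals. Every infested array thus lay above every naive one, and naive 2 was the highest of the naive arrays. FCGR1A, the high-affinity receptor for immunoglobulin G, had 8.0, 8.67 and 8.58 in infested skin, against 6.75, 7.29 and 6.55 in naive skin, a difference of 1.55 ± 0.21 (SE, adjusted p = 0.00634). CD14, the co-receptor for bacterial lipopolysaccharide, had 9.89, 10.65 and 10.08 in infested skin, against 7.69, 8.47 and 7.79 in naive skin, and both of its probe sets were higher. The lectin gene CLEC4G, best known from the liver sinusoids of other mammals, had 7.56, 6.67 and 6.96 in infested skin, against 4.60, 4.52 and 4.72 in naive skin, a 5.46-fold rise (adjusted p = 0.00191). All 3 of these genes passed in every leave-one-out fit. The chemokine PF4, stored in platelet granules and also made by macrophages, had 7.46, 7.19 and 7.92 in infested skin, against 5.16, 5.42 and 5.12 in naive skin. It was the only one of 11 erythrocyte and platelet markers to be called, by 2.29 ± 0.32 (SE, adjusted p = 0.00634), and it passed in every leave-one-out fit.

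Of 33 genes of the phagocyte oxidase, Fc receptors and phagocytosis, 6 were higher and 1 lower, with a median of 0.57. The count of both was 1 to 7 over the fits without 1 Holstein-Friesian array, the fewest without naive 1, and without the 2 arrays of lowest index 12 were higher and 3 lower. BTK, the tyrosine kinase of B cells and myeloid cells, had 7.29, 7.23 and 6.94 in infested skin, against 5.62, 5.98 and 5.45 in naive skin, a difference of 1.47 ± 0.25 (SE, adjusted p = 0.0143), and lost its call without naive 1 (adjusted p = 0.0661). One of 3 probe sets of the Src-family kinase LYN was higher, by 1.89 ± 0.35, and it did not pass without naive 1 or infested 2 (adjusted p up to 0.079); the lowest of the others stood at 0.11. The inhibitory receptor FCGR2B was the member that fell. The NADPH oxidase subunits NCF1, NCF4, CYBA and CYBB were not called. Of 51 genes of lysosomes and their proton pump, 5 were higher and 1 lower, with a median of 0.27. The higher ones were CD68, GPNMB, LGMN, GLB1 and FUCA1, and the lower one was the acid phosphatase ACP2. GPNMB, a glycoprotein of phagocytes and pigment cells, had 11.16, 11.42 and 11.53 in infested skin, against 10.11, 10.33 and 10.33 in naive skin. One of its 3 probe sets passed (difference 1.11 ± 0.23, adjusted p = 0.024), and not without naive 1, 2 or 3 or infested 2 or 3 (adjusted p up to 0.0977). None of the lysosomal calls was left without naive 1, naive 3, infested 2 or infested 3. The macrophage marker level given above moved with both lists, and its part in them was not tested.

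Other leukocyte markers were less uniform. None of 26 markers of T and NK cells was called by limma (median 0.24), and the list level was 0.32, 0.43 and 0.12 for infested animals, against -0.005, 0.20 and -0.20 for naive animals. Without the 2 arrays of lowest index 3 of them were higher and 1 lower, and with the replicate block 1 was lower. Of 12 markers of B and plasma cells 2 were higher, MZB1 and POU2AF1, and 1 lower, DERL3, with a median of 0.15, and with the replicate block POU2AF1 lost its call. The immunoglobulin gene IGCGAMMA, not among these calls, had a probe set higher by 3.84 (adjusted p = 0.0279), against -1.14 in Brahman skin (adjusted p = 0.353). Another of its probe sets did not pass without naive 1 or 3, naive Brahman 1 or 2, infested 2 or 3 or infested Brahman 2 or 3 (adjusted p up to 0.172). MZB1, a chaperone of antibody secretion, had 7.76, 8.25 and 7.33 in infested skin, against 5.39, 5.69 and 5.33 in naive skin. It rose by 2.31 ± 0.33 log2 (SE, adjusted p = 0.00693) and passed in every leave-one-out fit. DERL3, which clears misfolded proteins from the endoplasmic reticulum and is high in plasma cells and glands, had 8.54, 8.43 and 8.33 in infested skin, against 10.42, 9.48 and 10.31 in naive skin. Both of its probe sets were lower, with differences of -1.63 ± 0.32 and -1.60, and the first did not pass without naive 1 or 3 or infested 2 or 3 (adjusted p up to 0.0901). Of 19 neutrophil markers 3 were higher (MMP9, TREM1 and BPI) and PGLYRP1 was lower, with a median of -0.03 that ranged from -0.04 to 0.03 over the alternatives, and with the replicate block 1 was higher. The peptidoglycan-binding protein gene PGLYRP1 had 7.97, 8.33 and 7.36 in infested skin, against 13.73, 13.39 and 13.83 in naive skin, the widest difference of any called probe set, -5.77 ± 0.43 (SE), and it passed in every leave-one-out fit. The calgranulins S100A8 and S100A9 and the cathelicidins were not called. Markers of mast cells gave 1 call of 5, KIT, and those of eosinophils and basophils none of 4. Of 12 markers of Langerhans and dendritic cells CD209 was higher, and FSCN1 and LY75 were lower, the last not with the replicate block.

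Genes of cytokine receptors and JAK-STAT signalling were called at a share of 5.26%, close to the 5.97% of all genes measured. Of 38 cytokine receptor and JAK-STAT genes 1 was higher and 1 lower, with a median of 0.34 and 27 differences above 0. Without the 2 arrays of lowest index 7 of the 38 were higher and 2 lower, where 8.51% and 12.3% of all genes were. IL10RB, a shared receptor chain for interleukin 10 and related cytokines, was higher by 0.71 ± 0.17 (SE, adjusted p = 0.039). It did not pass without naive 1, 2 or 3, naive Brahman 1 or 2, infested 1, 2 or 3 or infested Brahman 2 (adjusted p up to 0.143). SOCS2, a feedback inhibitor of growth hormone and cytokine signals, had 8.81, 8.53 and 8.55 in infested skin, against 9.60, 9.31 and 9.63 in naive skin, and lost its call without naive 1 or 3 or infested 2 or 3 (adjusted p up to 0.0978). Of 27 NF-kB subunits and regulators BCL10, CHUK and TAB2 were higher, and with the replicate block 1 of them passed. None of these 3 passed without naive 1, naive 2, infested 2 or infested 3. For BCL10 the difference was 1.04 ± 0.24 at 1 of 4 probe sets, and it did not pass without naive 1 or 2, naive Brahman 1, 2 or 3 or infested 1, 2 or 3 (adjusted p up to 0.132). The 19 measured genes of MHC class I presentation gave no call, with a median of 0.05. Their list level was 0.07, 0.22 and 0.07 for infested animals, against -0.42, 0.27 and 0.15 for naive animals. Of 22 inflammasome and cell death genes 1 was called (4.55%, against 5.97% of all genes). It was BAX, a pore-forming promoter of apoptosis, which had 4.34, 3.95 and 4.38 in infested skin, against 5.24, 5.47 and 5.49 in naive skin, lower, with a difference of -1.17 ± 0.18 (SE, adjusted p = 0.00879) and passing in every leave-one-out fit.

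Lymphatic vessel markers were called higher in infested skin than in naive skin for 3 of 10 measured genes, LYVE1, MMRN1 and PDPN, and for none lower, while the list median was 0.14. Only 5 of the 10 differences lay above 0, and without the 2 arrays of lowest index 4 markers were higher and 1 lower. The list level was 0.83, 0.79 and 0.71 for infested animals, against -0.15, 0.18 and -0.03 for naive animals. LYVE1, the hyaluronan receptor of lymphatic endothelium that some macrophages also carry, had 8.51, 8.44 and 8.58 in infested skin, against 5.11, 5.65 and 5.48 in naive skin. The difference was 3.09 ± 0.55 (SE, adjusted p = 0.0158), and it did not pass without naive 1 or infested 3 (adjusted p up to 0.0716). Podoplanin, PDPN, of lymphatic endothelium and some fibroblasts, had 9.85, 10.79 and 9.86 in infested skin, against 7.79, 8.15 and 8.27 in naive skin, and did not pass without naive 1 or 2 (adjusted p up to 0.0776). None of the 3 passed without naive 1, and MMRN1 lost its call with the replicate block (adjusted p = 0.062, against 0.039 without it). The 19 markers of blood vessel endothelium had a median of 0.005 (-0.15 without the 2 arrays of lowest index) with 1 call each way, CALCRL higher and ENG lower. Endoglin, ENG, a co-receptor for TGF-beta and BMP on endothelium, had 8.98, 8.48 and 8.32 in infested skin, against 9.52, 9.66 and 9.51 in naive skin, and did not pass without naive 1 or 2 or infested 2 or 3 (adjusted p up to 0.0691).

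Genes that set vessel tone and growth were called higher in several steps of their pathways. Of 41 genes of histamine, kinin, nucleotide and vasoactive signals, 7 were higher, with none lower, at a median of 0.11 (-0.02 without the 2 arrays of lowest index). Over the fits without 1 Holstein-Friesian array the count was 2 to 7, the fewest without naive 1. Adrenomedullin, ADM, a vasodilator peptide that low oxygen and inflammation induce, had 10.58, 10.91 and 9.79 in infested skin, against 7.99, 7.69 and 8.37 in naive skin, a 5.34-fold rise (log2 2.42 ± 0.37, SE, adjusted p = 0.008). CALCRL, the receptor through which adrenomedullin acts, had 9.62, 9.62 and 9.81 in infested skin, against 8.51, 8.64 and 8.66 in naive skin. One of its 2 probe sets passed (difference 1.08 ± 0.19, adjusted p = 0.0149), though not without naive 1 or infested 3 (adjusted p up to 0.0691). The ecto-5'-nucleotidase NT5E, which makes adenosine from AMP outside cells, had 7.80, 7.80 and 7.92 in infested skin, against 6.21, 6.35 and 6.55 in naive skin. Both of its probe sets passed, the first by 1.47 ± 0.18 (SE, adjusted p = 0.00405). ADM and NT5E passed in every leave-one-out fit. The type 1 angiotensin receptor AGTR1 rose by 1.80 ± 0.38 but did not pass without naive 1, 2 or 3 or infested 1 or 2 (adjusted p up to 0.101). F2RL1, the protease-activated receptor that tryptase and other trypsin-like enzymes cleave, had 8.72, 9.73 and 9.16 in infested skin, against 7.81, 7.82 and 7.78 in naive skin, and did not pass without naive 1, 2 or 3 or infested 3 (adjusted p up to 0.0744).

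Of 39 FGF, PDGF and VEGF signalling genes 6 were higher, none was lower and the median was 0.09. The median was -0.11 without the 2 arrays of lowest index or without infested 1 alone, -0.06 without naive 2 and -0.004 when a gene's probe sets were averaged, and without those 2 arrays 8 genes were higher and 4 lower. The 6 genes called higher with all arrays were PDGFRL, ANGPT2, VEGFC, NRP1, PDGFRA and FGF2, and leaving out 1 Holstein-Friesian array left 1 to 5 calls. PDGFRL, which encodes a secreted protein resembling the PDGF receptor, had 11.19, 11.23 and 11.01 in infested skin, against 8.46, 9.0 and 9.04 in naive skin, a 4.95-fold rise (log2 2.31 ± 0.21, SE, adjusted p = 0.00152) that passed in every leave-one-out fit. Angiopoietin 2, ANGPT2, which loosens endothelium by opposing TIE2 signals, had 7.47, 7.90 and 7.70 in infested skin, against 6.07, 5.89 and 6.42 in naive skin. It rose by 1.56 ± 0.28 and did not pass without naive 1 or 2 or infested 3 (adjusted p up to 0.0691). VEGFC, the main growth factor of lymphatic vessels, had 7.58, 7.46 and 7.08 in infested skin, against 5.63, 5.97 and 6.25 in naive skin, and did not pass without naive 1 or 2 or infested 1, 2 or 3 (adjusted p up to 0.112). The VEGF and semaphorin co-receptor NRP1 rose by 1.28 ± 0.22 and did not pass without naive 1 or 2 or infested 3 (adjusted p up to 0.0661). PDGFRA lost its call with the replicate block (adjusted p = 0.0548, against 0.0381 without it). In each of these 6 genes the 3 infested arrays were above the 3 naive arrays.

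In the Wnt pathway 7 of 35 measured genes were higher and 1 lower, with a median of 0.17. The count of both was 3 to 6 over the fits without 1 Holstein-Friesian array, and 7 and 2 without the 2 arrays of lowest index. The measured ligands WNT2B, WNT6 and WNT11 were not called. The receptor FZD4 had 6.21, 6.21 and 6.29 in infested skin, against 5.35, 5.26 and 5.52 in naive skin, and the receptor FZD1 had 9.59, 9.84 and 10.06 in infested skin, against 8.76, 8.44 and 8.96 in naive skin. They rose by 0.86 ± 0.12 and 1.11 ± 0.18 (SE, adjusted p = 0.00661 and 0.0108), each at 1 of 2 probe sets. SFRP1, a secreted decoy for Wnt ligands, had 10.90, 10.94 and 11.34 in infested skin, against 10.20, 9.86 and 10.19 in naive skin, a rise of 0.98 ± 0.17 (SE, adjusted p = 0.0131). FZD4, FZD1 and SFRP1 passed in every leave-one-out fit, and no infested value of theirs reached down to a naive one. SFRP4, another decoy, rose by 1.88 ± 0.40 and did not pass without naive 1 or 3 or infested 3 (adjusted p up to 0.103). The co-receptor LRP5 was the gene that fell, with a difference of -1.28 ± 0.22 on the log2 scale at 1 of 2 probe sets, and it did not pass without naive 1 or 2 or infested 3 (adjusted p up to 0.0609). The rest of the calls were GSK3B and, lost with the replicate block, DKK3 and RSPO1.

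Among TGF-beta, activin and BMP genes 5 of 36 were higher (BMP2, CCN2, TGFB3, TGFBI and TGFBR2) and ENG was lower, with a median of 0.14. BMP2, a bone morphogenetic protein that also acts in hair follicles and wounds, had 8.29, 8.64 and 8.60 in infested skin, against 6.79, 6.47 and 7.05 in naive skin, a rise of 1.74 ± 0.25 (SE, adjusted p = 0.00675). KLF10, a transcription factor induced early by TGF-beta, had 7.64, 7.54 and 7.78 in infested skin, against 5.99, 5.32 and 5.18 in naive skin, and both of its probe sets rose. BMP2 and KLF10 passed in every leave-one-out fit. The ligand TGFB3 had 7.02, 7.08 and 6.79 in infested skin, against 5.65, 5.90 and 5.46 in naive skin, and did not pass without naive 1, 2 or 3 or infested 2 or 3 (adjusted p up to 0.0967). Its receptor TGFBR2 passed at 1 of 2 probe sets, by 1.05 ± 0.23, and not without naive 1, 2 or 3 or infested 2 or 3 (adjusted p up to 0.117). For the whole list the count was 1 to 5 over the fits without 1 Holstein-Friesian array, the fewest without naive 1, infested 2 or infested 3. Of the lists for Notch and Hedgehog signals and for the EGF family, 2 of 20 and 2 of 27 members were higher, and none lower. None of the 4 passed without naive 1 or naive 2. These were DLL4 and BOC, and ERRFI1 and AREG, and both of the EGF family lost their call with the replicate block. The insulin-like growth factor axis gave 1 call among 31 genes (3.23%, against 5.97% of all genes). AKT2, a kinase of insulin signalling, had 6.46, 6.64 and 7.25 in infested skin, against 7.99, 8.41 and 8.63 in naive skin, lower, with a difference of -1.56 ± 0.22 at 1 of 3 probe sets (adjusted p = 0.00661) and passing in every leave-one-out fit.

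**Figure D3:**
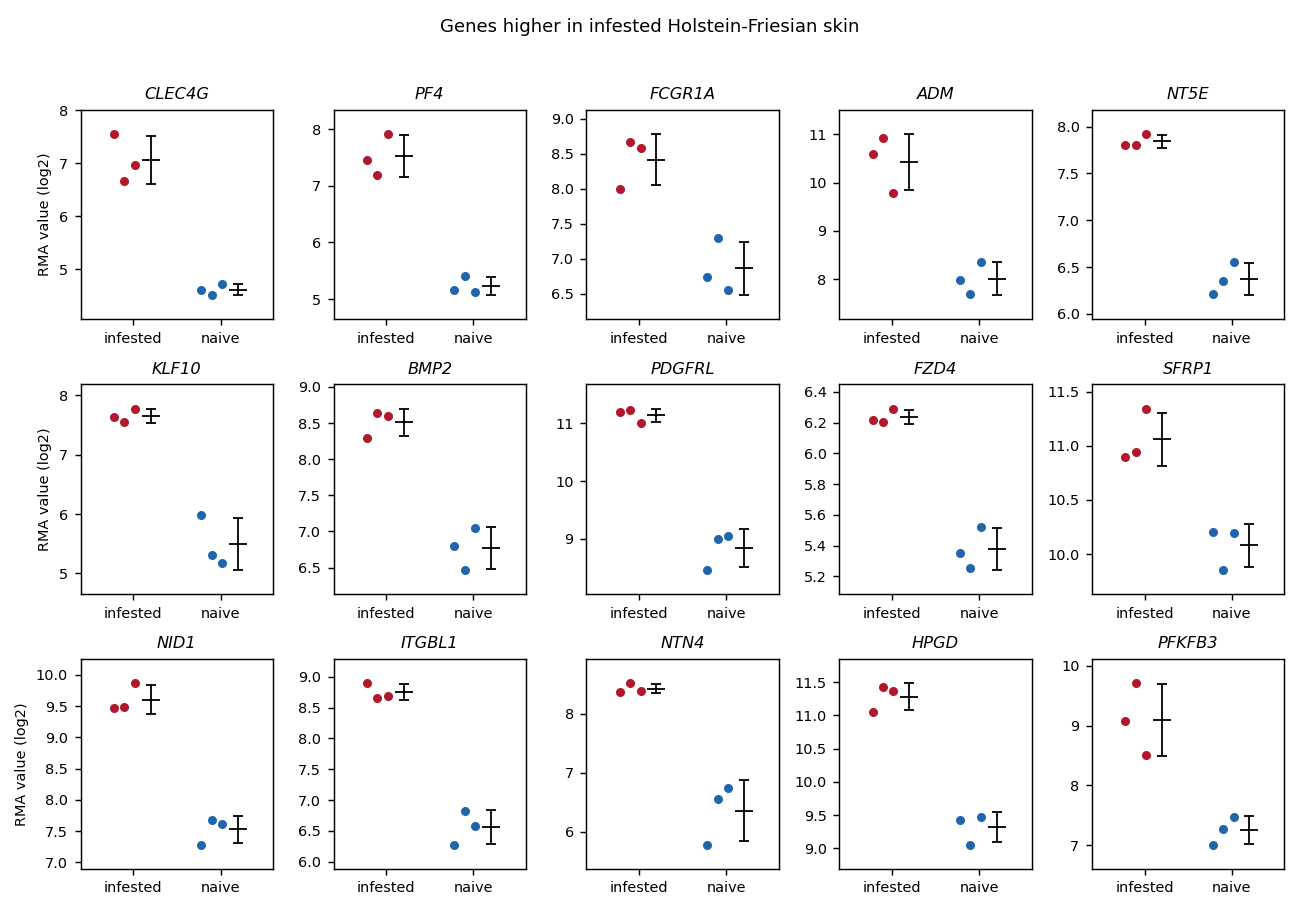
Each panel gives the RMA value (log2) of a gene in the 3 infested (left, red) and 3 naive (right, blue) Holstein-Friesian arrays, with the mean and SD in black, and each panel has its own axis, which does not start at 0. All 15 genes passed in every leave-one-out fit, and in each the infested arrays lie above the naive ones: PDGFRL had 11.01 to 11.23 in infested and 8.46 to 9.04 in naive skin.

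Basement membrane genes were higher for 3 of 20 measured members and lower for none, with a median of 0.08. Nidogen 1, NID1, which links laminin to collagen IV, had 9.47, 9.48 and 9.86 in infested skin, against 7.28, 7.67 and 7.62 in naive skin, a 4.22-fold rise (log2 2.08 ± 0.24, SE, adjusted p = 0.00341) that passed in every leave-one-out fit. NID2 rose by 0.89 ± 0.19 and did not pass without naive 1 or 2 or infested 3 (adjusted p up to 0.111). The laminin chain LAMC1 rose by 1.01 ± 0.16 at 1 of 6 probe sets and lost its call without naive 1 (adjusted p = 0.0533). Netrin 4, NTN4, a laminin-binding protein of basement membranes, had 8.36, 8.51 and 8.39 in infested skin, against 5.79, 6.55 and 6.75 in naive skin, a rise of 2.06 ± 0.30 (adjusted p = 0.00698). ITGBL1, a secreted protein resembling integrin beta chains, had 8.89, 8.66 and 8.70 in infested skin, against 6.28, 6.82 and 6.58 in naive skin, a rise of 2.19 ± 0.30 (adjusted p = 0.00615). Both passed in every leave-one-out fit, and neither belonged to a list.

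Of 39 genes of hyaluronan, glycosaminoglycans and proteoglycans 5 were higher, with none lower, at a median of 0.19. They were SRGN, DSE, GPC3, CHSY1 and SDC2, and leaving out 1 Holstein-Friesian array left 0 to 4 of them past the threshold, with none left without naive 1. Serglycin, SRGN, the proteoglycan of leukocyte granules, had 10.59, 12.46 and 11.39 in infested skin, against 8.70, 9.59 and 8.75 in naive skin, a rise of 2.47 ± 0.48 (SE, adjusted p = 0.0213), and did not pass without naive 1 or 3 or infested 2 or 3 (adjusted p up to 0.0907). DSE, which turns chondroitin into dermatan sulfate, had 8.84, 7.94 and 8.45 in infested skin, against 7.06, 6.81 and 7.28 in naive skin, and did not pass without naive 1 or 2 or infested 3 (adjusted p up to 0.0661). CHSY1, a chondroitin synthase, rose by 1.18 ± 0.20 at 1 of 3 probe sets and lost its call without naive 1 (adjusted p = 0.061). The cell surface glypican GPC3 rose by 1.22 ± 0.21 and did not pass without naive 1 or infested 3 (adjusted p up to 0.0661). Among markers of fibroblasts and pericytes 4 of 19 were higher (DPT, FAP, LUM and PDGFRA), and none of these passed without naive 1, naive 2, infested 2 or infested 3. The list had a median of 0.36 and list levels of 0.23, 0.62 and 0.56 for infested animals, against -0.15, 0.11 and 0.04 for naive animals. COL1A1 and COL1A2 were not called. The part of fibroblast markers in the matrix genes was not tested. In the list of serpins, kallikreins and protease inhibitors, 3 of 39 members were higher and none lower. They were SERPINF1, KLK10 and ADAM9, the last a metalloprotease that the list also held. No member of that list passed without naive 1, naive 2 or infested 3, and without the 2 arrays of lowest index 5 were higher and 3 lower.

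Enzymes and receptors of prostaglandins changed in both directions. Of 23 eicosanoid genes 3 were higher (HPGD, PTGFR and PTGES) and 1 lower (PTGDS), with a median of 0.40, and with the replicate block 2 were higher and 2 lower. HPGD, the dehydrogenase that inactivates prostaglandins, had 11.05, 11.42 and 11.37 in infested skin, against 9.42, 9.06 and 9.46 in naive skin, a 3.91-fold rise (log2 1.97 ± 0.22, SE, adjusted p = 0.0028) that passed in every leave-one-out fit. Its second probe set stood at 1.91 without passing. PTGDS, which makes prostaglandin D2, had 9.54, 9.16 and 9.17 in infested skin, against 10.76, 10.44 and 10.67 in naive skin, a log2 difference of -1.33 ± 0.30 (SE, adjusted p = 0.0335), and did not pass without naive 1, 2 or 3 or infested 2 or 3 (adjusted p up to 0.119). The prostaglandin F receptor PTGFR rose by 1.77 ± 0.42 at 1 of 3 probe sets, with infested 1 at 5.26 and infested 2 and 3 at 6.86 and 6.91, against 4.43, 4.97 and 4.33 in the naive arrays. It did not pass without naive 1, 2 or 3, naive Brahman 2, infested 2 or 3 or infested Brahman 2 (adjusted p up to 0.132).

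Glycolysis and hypoxia response genes gave 6 higher and 2 lower calls among 52, with a median of 0.12. Over the fits without 1 Holstein-Friesian array the count was 2 to 9, the fewest without naive 1 or infested 2. PFKFB3, which makes the activator fructose 2,6-bisphosphate of glycolysis, had 9.07, 9.71 and 8.50 in infested skin, against 7.01, 7.26 and 7.47 in naive skin, a rise of 1.84 ± 0.27 at 1 of 3 probe sets (SE, adjusted p = 0.00693) that passed in every leave-one-out fit. Its family member PFKFB4 was lower, with a difference of -0.88 ± 0.20 and did not pass without naive 1 or 2, naive Brahman 3 or infested 2 or 3 (adjusted p up to 0.128). BNIP3, a hypoxia-induced mitophagy receptor, had 10.53, 10.73 and 10.31 in infested skin, against 9.45, 9.61 and 9.42 in naive skin, and did not pass without naive 1, 2 or 3 or infested 2 (adjusted p up to 0.0867). NDRG1 rose by 0.86 ± 0.16 and did not pass without naive 1 or infested 2 (adjusted p up to 0.0829). The rest of the higher calls were ADM, HK3 and PFKM, and the second lower call was TALDO1. ADM, shared with the vasoactive list, had the widest difference among the called members. In Brahman skin NDRG1 was called lower, at -0.525 (adjusted p = 0.0415), as 1 of the 3 probe sets called in both breeds with opposite signs. BNIP3 stood at -0.13 there (adjusted p = 0.69) and ADM at 0.74 (adjusted p = 0.177), neither called, while PFKFB3 was called higher, at 1.19 (adjusted p = 0.0121). The breed difference was not called for any of them.

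Amino acid metabolism was called lower more often than higher. Of 68 measured genes of amino acid, polyamine and one-carbon metabolism 8 were lower and 2 higher, with a median of -0.25 and 20 differences above 0. With the replicate block 4 were lower and 2 higher, and 5 of the 10 calls made without it were kept. Without the 2 arrays of lowest index 19 were lower and 6 higher. Leaving out 1 Holstein-Friesian array gave 1 to 11 calls, the fewest without naive 1. The list level was -0.27, -0.31 and -0.27 for infested animals, against -0.05, 0.04 and 0.01 for naive animals. PHGDH, the first enzyme of serine synthesis, had 9.93, 9.56 and 9.94 in infested skin, against 11.06, 11.13 and 11.13 in naive skin, a log2 difference of -1.30 ± 0.17 (SE, adjusted p = 0.00529), and it passed in every leave-one-out fit. PSPH, the last enzyme of that pathway, had 9.06, 9.25 and 9.54 in infested skin, against 10.42, 11.03 and 10.96 in naive skin, and did not pass without naive 1, 2 or 3 or infested 2 or 3 (adjusted p up to 0.0815). PSAT1, the step between them, stood at -0.33 without passing. PYCR1, which makes proline, had 7.73, 6.96 and 7.18 in infested skin, against 8.71, 8.67 and 9.07 in naive skin, and did not pass without naive 1 or infested 3 (adjusted p up to 0.0631). In Brahman skin PYCR1 stood at 0.35 (adjusted p = 0.394), and the breed difference was not called. The tyrosine aminotransferase TAT had 5.65, 5.95 and 5.06 in infested skin, against 7.50, 7.71 and 7.46 in naive skin, and did not pass without naive 1 or 2 or infested 3 (adjusted p up to 0.0661). AADAT, an aminotransferase of lysine and kynurenine breakdown outside the list, was lower, with a difference of -2.15 ± 0.39 and did not pass without naive 1 or infested 3 (adjusted p up to 0.0742). The genes called higher were GATM, of creatine synthesis, and the transporter SLC1A4, which lost its call with the replicate block (adjusted p = 0.0529).

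Among 51 genes of fatty acid oxidation and peroxisomes 3 were lower (ECI2, PEX6 and PEX19) and none higher, with a median of -0.35 and 13 differences above 0. The list level was -0.37, -0.40 and -0.35 for infested animals, against -0.07, 0.03 and 0.04 for naive animals. Every infested array thus lay below every naive one. The count was 0 without naive 1, naive 2, infested 2 or infested 3 and 9 without infested 1, and without the 2 arrays of lowest index 15 were lower and 2 higher. PEX19, which carries membrane proteins to peroxisomes, had 9.23, 8.84 and 8.77 in infested skin, against 9.79, 9.65 and 9.67 in naive skin, and did not pass without naive 1 or 2 or infested 2 or 3 (adjusted p up to 0.0849). ECI2, an isomerase for unsaturated fatty acids, had 8.86, 8.52 and 8.37 in infested skin, against 9.68, 10.46 and 9.96 in naive skin, and did not pass without naive 1, 2 or 3, naive Brahman 3 or infested 2 or 3 (adjusted p up to 0.128).

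Steroid, retinoid and vitamin D genes gave 10 lower and 1 higher call among 54, with a median of -0.29. With the replicate block 5 were lower and 1 higher. Leaving out 1 Holstein-Friesian array gave 2 to 11 calls, with 2 left without naive 1, naive 2, infested 2 or infested 3. The list level was -0.27, -0.42 and -0.27 for infested animals, against -0.02, -0.04 and 0.06 for naive animals. HSD17B2, which inactivates estradiol and testosterone, had 5.82, 5.93 and 5.78 in infested skin, against 9.15, 8.43 and 8.83 in naive skin, the widest fall in the list, with a log2 difference of -2.96 ± 0.32 (SE, adjusted p = 0.00278). The glucocorticoid receptor NR3C1 had 9.07, 8.80 and 9.58 in infested skin, against 8.02, 7.59 and 8.01 in naive skin, the one member that rose, by 1.28 ± 0.21 at 1 of 2 probe sets (SE, adjusted p = 0.0109). Both passed in every leave-one-out fit. FKBP5, a gene that glucocorticoids induce in many tissues, was lower and lost its call with the replicate block. CRABP1, which binds retinoic acid inside cells, had 6.29, 5.66 and 6.66 in infested skin, against 7.62, 8.16 and 7.48 in naive skin, and did not pass without naive 1, 2 or 3 or infested 2 or 3 (adjusted p up to 0.115). Its Brahman difference was 1.05 (adjusted p = 0.051), of the other sign, and the difference between breeds was not called. The retinoid X receptor RXRG had 6.50, 5.94 and 6.03 in infested skin, against 7.13, 7.41 and 7.40 in naive skin, and did not pass without naive 1, 2 or 3 or infested 2 or 3 (adjusted p up to 0.0649). Both of these retinoid genes had every infested array below every naive array.

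Heme and iron genes had a median of 0.03 over 47 members, which ranged from -0.05 to 0.08 over the alternatives, with 3 lower and 1 higher, or 3 and 0 with the replicate block. The lower ones included both biliverdin reductases, which turn biliverdin into bilirubin. BLVRB had 9.0, 9.02 and 9.23 in infested skin, against 10.16, 10.33 and 10.28 in naive skin, a log2 difference of -1.18 ± 0.13 (SE, adjusted p = 0.0028), and passed in every leave-one-out fit. BLVRA had 9.13, 9.10 and 9.32 in infested skin, against 10.23, 9.97 and 10.52 in naive skin, and did not pass without naive 1 or 3 or infested 2 (adjusted p up to 0.0715). The transferrin receptor TFRC was lower, with a difference of -1.01 ± 0.18 and did not pass without naive 1 or 2 or infested 3 (adjusted p up to 0.0691). BLVRB differed by -1.18 and BLVRA by -1.07 in Brahman skin too.

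In infested skin 5 of 16 measured sebaceous gland markers fell (ELOVL6, SCD, KRT7, PPARG and HSD3B1) and none rose, with a median of -1.06. Leaving out 1 Holstein-Friesian array left 1 to 3 of them past the threshold, the fewest without naive 1, the replicate block left 4, and without the 2 arrays of lowest index 9 were lower and 1 higher. The list level was -0.72, -0.84 and -0.79 for infested animals, against 0.03, -0.04 and 0.001 for naive animals. KRT7, a keratin of simple and glandular epithelium, had 8.83, 8.34 and 8.41 in infested skin, against 10.63, 9.94 and 10.50 in naive skin, a log2 difference of -1.83 ± 0.26 (SE, adjusted p = 0.00693) that passed in every leave-one-out fit. ELOVL6, which lengthens saturated fatty acids, had 5.71, 5.86 and 6.84 in infested skin, against 8.36, 7.81 and 8.18 in naive skin, and lost its call without naive 1 (adjusted p = 0.0689). SPDEF, a transcription factor of secretory epithelium, had 6.48, 6.01 and 5.79 in infested skin, against 8.15, 7.12 and 8.14 in naive skin, and did not pass without naive 1 or infested 3 (adjusted p up to 0.0754). AZGP1, a secreted glycoprotein of glandular epithelium, had 9.83, 9.0 and 9.88 in infested skin, against 11.72, 11.16 and 11.65 in naive skin, a log2 difference of -1.94 ± 0.28 (SE, adjusted p = 0.00698) that passed in every leave-one-out fit. CERS5, a ceramide synthase, had 9.23, 8.73 and 8.85 in infested skin, against 10.90, 10.91 and 10.77 in naive skin, lower, with a difference of -1.92 ± 0.26 at 1 of 2 probe sets, also in every leave-one-out fit. Sebaceous markers moved with the steroid, fatty acid and amino acid genes above, and their part in those lists was not tested. The plot of list levels sets these lists side by side.

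**Figure D4:**
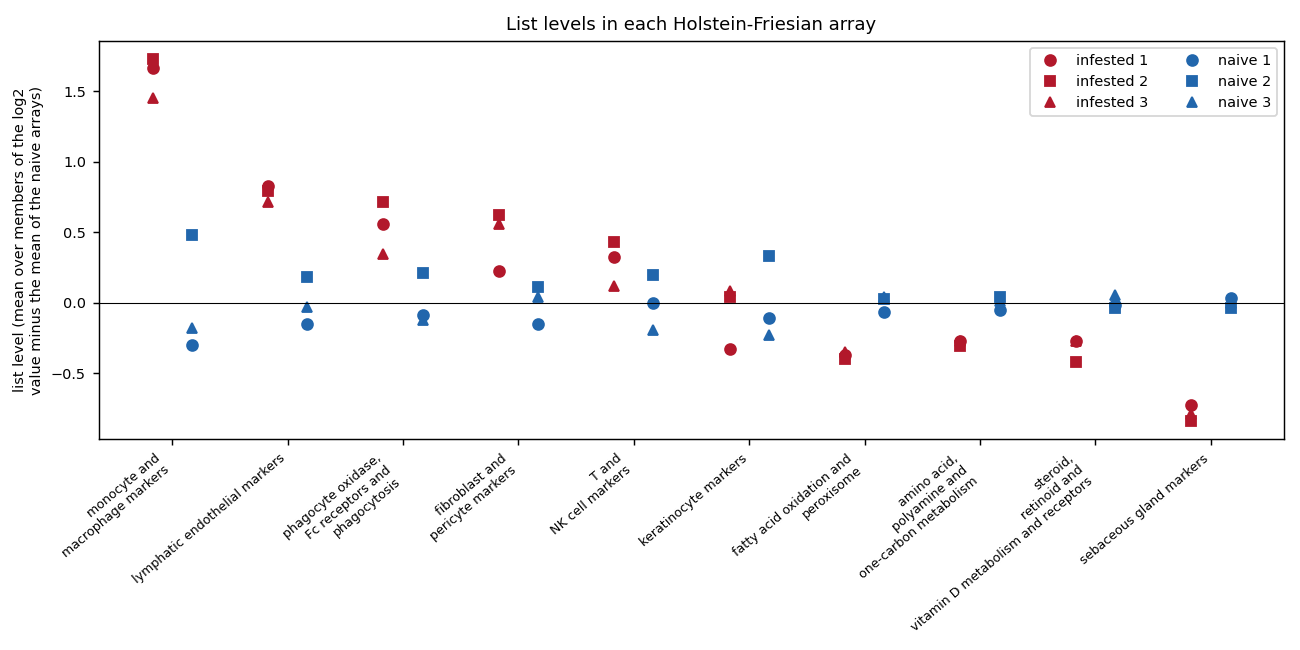
Each point is the list level of 1 Holstein-Friesian array (log2 values relative to each gene's naive mean, averaged over the members), with infested arrays in red left of naive arrays in blue and 1 marker shape per array number. Monocyte and macrophage markers stand at 1.45 to 1.73 in infested skin, sebaceous gland markers at -0.84 to -0.72, and keratinocyte markers overlap between the groups.

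None of 15 keratinocyte markers was called by limma, with all arrays or without the 2 arrays of lowest index, and the median was 0.01, ranging from -0.09 to 0.13 over the alternatives. The list level was -0.33, 0.04 and 0.08 for infested animals, against -0.11, 0.33 and -0.23 for naive animals. Of 18 cornified envelope and barrier lipid genes 2 were higher and none lower. UGCG, the glucosylceramide synthase of the lipid barrier, had 9.59, 10.19 and 10.03 in infested skin, against 8.09, 8.40 and 8.40 in naive skin, a rise of 1.64 ± 0.23 (SE, adjusted p = 0.00675) that passed in every leave-one-out fit. The other was KLF4, a transcription factor of barrier formation, which rose by 0.89 ± 0.21 and did not pass without naive 1, 2 or 3, naive Brahman 3 or infested 2 or 3 (adjusted p up to 0.14). Of 36 tight junction and polarity genes 2 were lower and 1, ELF5, was higher, the last not with the replicate block. TJP3, a scaffold of tight junctions, had 6.27, 5.78 and 6.17 in infested skin, against 7.85, 7.32 and 7.96 in naive skin, lower, with a difference of -1.64 ± 0.29 at 1 of 3 probe sets, and lost its call without naive 1 (adjusted p = 0.0701). Claudin 7, CLDN7, had 6.34, 6.81 and 6.33 in infested skin, against 8.43, 7.69 and 7.72 in naive skin, and did not pass without naive 1 or infested 3 (adjusted p up to 0.081). Hair follicle genes gave no call among 12, with a median of 0.30. Of 45 sweat gland and ion transport genes CA2 was lower and no gene higher (2.22% called, against 5.97% of all genes). CA2 did not pass with the replicate block or without any 1 of the 6 Holstein-Friesian arrays. Of 10 melanocyte markers KIT, counted also with the mast cells, was higher, and of 17 adipocyte markers CFD was higher and THRSP and PPARG were lower. No marker of smooth muscle (12 measured), skeletal muscle (21) or Schwann cells (11) was called, with medians of -0.37, -0.28 and -0.25. Without the 2 arrays of lowest index 3, 1 and 1 of these markers were lower and none higher, where 12.3% of all genes were lower.

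Of 79 splicing factors and 60 translation factors and tRNA synthetases none was called by limma. Without the 2 arrays of lowest index the counts were 3 higher and 7 lower splicing factors, and 3 of each for translation. Of 94 genes of the mitochondrial ribosome and import 3 were lower (TOMM40, MRPL12 and MRPL43) and none higher, with a median of -0.15, and 1 passed with the replicate block. Of 80 genes of the unfolded protein response and secretory pathway 3 were lower (DERL3, SEC11C and CRELD2), with a median of -0.17, and 1 passed with the replicate block. The shares called lower, 3.19% and 3.75%, lay near the 2.84% of all genes called lower. Neither list had a call left without naive 1, naive 3, infested 2 or infested 3. In the list of autophagy and ubiquitin ligases 2 of 67 were higher, UBE2G1 and GABARAPL1, and the first lost its call with the replicate block. That share, 2.99%, lay near the 3.13% of all genes called higher. GABARAPL1, a coat protein of autophagosomes, had 10.78, 10.70 and 10.37 in infested skin, against 8.65, 8.93 and 9.29 in naive skin, a rise of 1.66 ± 0.28 at 1 of 2 probe sets (SE, adjusted p = 0.0141), and lost its call without naive 1 (adjusted p = 0.0661). Of 42 genes of the p53 and DNA damage response GADD45A and PPM1D were higher and ERCC2 lower (7.14% called), and with the replicate block PPM1D lost its call. GADD45A, a stress-induced growth arrest gene, had 7.29, 8.10 and 7.74 in infested skin, against 6.41, 6.10 and 6.16 in naive skin, a rise of 1.49 ± 0.20 (SE, adjusted p = 0.00615) that passed in every leave-one-out fit. The 10 circadian clock genes gave no call.

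Of 68 chromatin regulators and histones 1 was lower and 1 higher (2.94% called, against 5.97% of all genes). HMGA1, an architectural protein of chromatin that is abundant in growing and fetal tissues, had 6.94, 6.62 and 7.02 in infested skin, against 9.52, 9.35 and 9.81 in naive skin, a 6.52-fold fall (log2 -2.70 ± 0.28, SE, adjusted p = 0.00278). SIRT1 was the higher one and lost its call with the replicate block. HOXA5, a homeobox gene of body position, had 5.09, 4.82 and 5.0 in infested skin, against 6.72, 6.67 and 7.39 in naive skin, a log2 difference of -1.96 ± 0.28 at 1 of 2 probe sets (SE, adjusted p = 0.00663). HMGA1 and HOXA5 passed in every leave-one-out fit. A second gene of that cluster, HOXA9, had 4.85, 4.07 and 4.35 in infested skin, against 8.64, 8.37 and 8.93 in naive skin, and did not pass without naive 1, 2 or 3 or infested 2 or 3 (adjusted p up to 0.101). Infested and naive values of all 3 lay more than 1 log2 apart. Whether the biopsies of the groups came from the same body site was not tested.

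Several of the most stable falls lay outside the lists. CADM3, a cell adhesion molecule known from neurons, had 5.52, 5.66 and 5.70 in infested skin, against 7.71, 8.03 and 7.66 in naive skin, a 4.51-fold fall with both probe sets called (log2 -2.17 ± 0.17, SE, adjusted p = 0.000522). ALPL, the tissue-nonspecific alkaline phosphatase, had 5.44, 6.11 and 5.69 in infested skin, against 8.16, 7.89 and 7.82 in naive skin, and both of its probe sets fell. DNAJC12, a co-chaperone of the aromatic amino acid hydroxylases, had 9.13, 9.24 and 8.81 in infested skin, against 11.52, 10.84 and 11.57 in naive skin, a log2 difference of -2.25 ± 0.33 (SE, adjusted p = 0.00698). SLC16A13, a monocarboxylate transporter, had 5.58, 5.15 and 5.34 in infested skin, against 7.48, 6.89 and 7.17 in naive skin, with 2 of 3 probe sets called. CHCHD10, a protein of the mitochondrial intermembrane space, had 9.19, 8.10 and 8.42 in infested skin, against 10.08, 10.40 and 10.23 in naive skin, a log2 difference of -1.67 ± 0.26. ENPP5, of the ectonucleotide phosphodiesterase family, had 4.47, 4.99 and 4.56 in infested skin, against 6.76, 6.45 and 6.89 in naive skin, at 1 of 4 probe sets. These 6 genes passed in every leave-one-out fit. At the probe set whose values are given, each was called lower in Brahman skin as well, with differences of -1.04 for SLC16A13 to -2.97 for DNAJC12. The second called probe sets of CADM3 and SLC16A13 were not called in Brahman skin, at -0.65 (adjusted p = 0.178) and -0.24 (adjusted p = 0.46). That of ALPL was called lower there, at -1.75 (adjusted p = 0.0033).

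**Figure D5:**
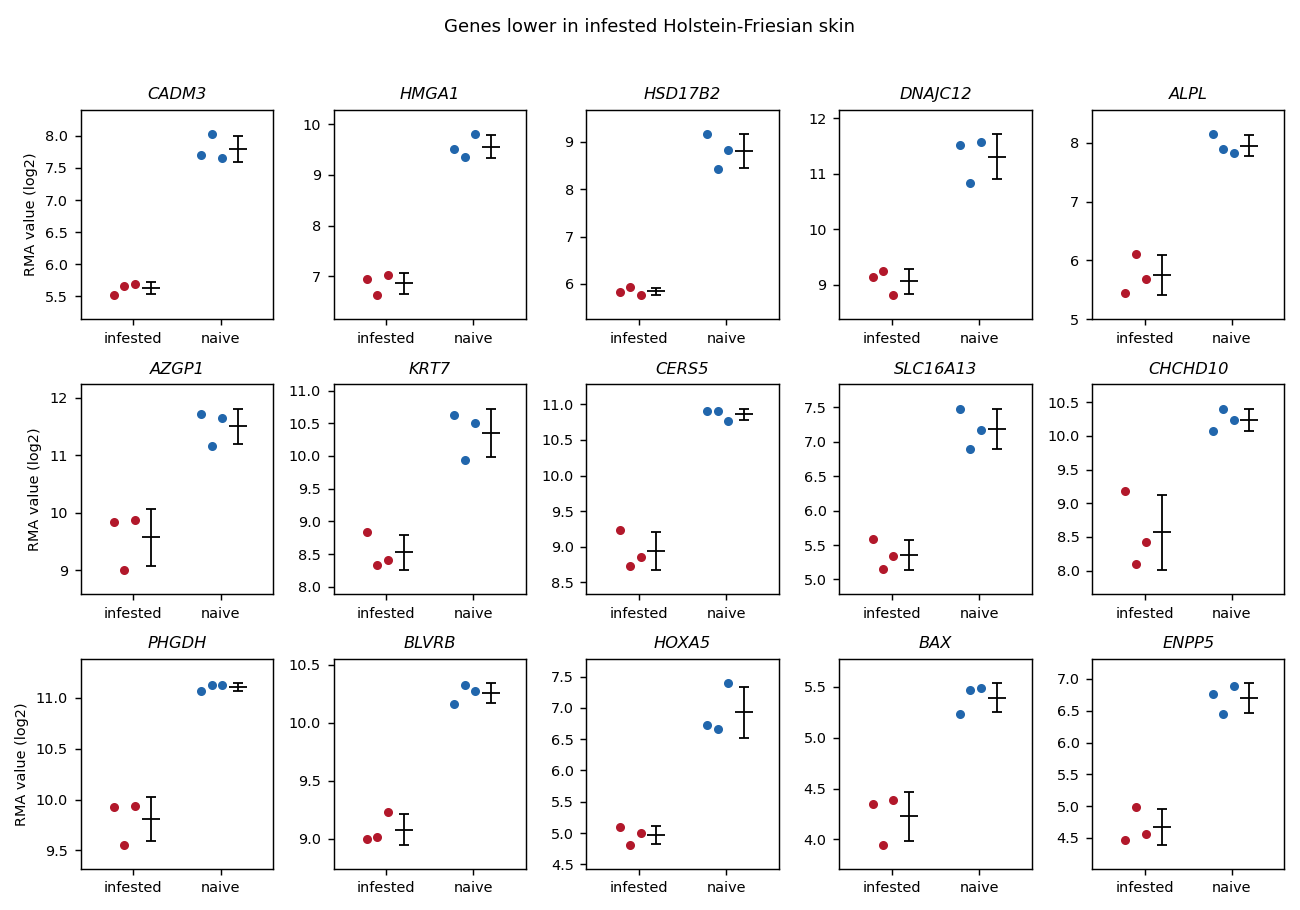
Each panel gives the RMA value (log2) of a gene in the 3 infested (left, red) and 3 naive (right, blue) Holstein-Friesian arrays, with the mean and SD in black, and each panel has its own axis, which does not start at 0. All 15 genes passed in every leave-one-out fit, and in each the infested arrays lie below the naive ones: CADM3 had 5.52 to 5.70 in infested and 7.66 to 8.03 in naive skin.

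Of 201 named genes past the threshold, 49 passed in every leave-one-out fit and 152 did not pass without at least 1 array. Leaving out naive 1 ended 150 of these calls, and leaving out infested 3 ended 130. None of the 201 calls ended when infested Brahman 1, whose index was lowest, was left out. With the index as a covariate all 201 kept their call, and 160 kept it with the replicate block. Among the 58 genes named without their arrays, 30 lost their call with that block, including BPI and TREM1 of the neutrophil markers, CCN2 of the TGF-beta list, DPT of the fibroblast markers, HSD3B1 of the sebaceous markers, SDC2 of the proteoglycan genes, PTGES of the eicosanoid genes, PFKM and TALDO1 of the glycolysis list and the transporter SLC1A4.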

How the data were processed

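RNA from 1 whole-skin punch biopsy per animal was hybridised to 1 Affymetrix bovine expression array each. The deposited files hold 1 log2 value per probe set and array. The authors computed these with robust multi-array average (RMA), as the submitters' processing notes state; which software, version and chip definition they used is not given in the sources used here. Of 24128 probe sets, 112 controls were left out and 24016 tested with no filter on low signal. The platform annotation gave 13292 of them 1 gene symbol (9155 genes), 86 several and 10638 none; 13263 gene IDs matched the RefSeq table, which changed no symbol. Detection calls were not used, so signal over background is unknown. Precision is limited by the number of arrays.

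The 4 group means were fitted to all 12 arrays at once with limma 3.58.1 in R 4.3.3 (lmFit, eBayes, 8 residual and 3.03 prior degrees of freedom), so that Brahman arrays share in the estimate of spread. P-values are two-sided and were adjusted by Benjamini-Hochberg over all probe sets of a comparison, with a threshold of 0.05. Tested on data simulated from the means and spreads of the 24016 probe sets, the comparison of infested against naive Holstein-Friesian animals recovered 51% of the changed probe sets where the change was 1 log2, and 91% where it was 2 log2. It changed 100 probe sets by each size, and 11 unchanged ones were called. The simulated noise was independent and equal between arrays, whereas the weights of the real arrays ranged from 0.187 to 3.724. These shares therefore need not hold for the deposited data. Each array stands for a different animal, so the spread between arrays holds animal differences.

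The comparison and the 54 gene lists were chosen with earlier results of these data known. Named genes followed a rule: up to 40 of the widest rises and falls with 1 symbol, past the threshold and without overlap of the arrays, up to 8 members of each list past the threshold, and genes called for a breed difference; the text gives some of them.

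Same-numbered infested and naive Holstein-Friesian arrays had deviations from their group means that correlated by 0.22, 0.25 and 0.11. By the rule used here these numbers count as pairs, although no label explains them and the animals differed in age, so the replicate block is given where it changes the call of a gene described with its values, or the count of a list by over 1.5 times. No array repeated another: at most 0.104% of values were equal between any pair.

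The alternatives were median centring, cyclic loess, a low-signal filter, a trended robust prior, array weights, the 6 arrays alone, the replicate block in all 12 and in 6 arrays, leaving out each array, the index as a covariate, leaving out the 2 arrays of lowest index, and for lists the mean over probe sets. List medians and counts without the 2 arrays of lowest index, and list counts with the replicate block, were added after seeing the data.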

Additional observations from a re-analysis of the deposited data

Results flagged for a closer look

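PCOLCE drew attention because a test of the breed difference in the infestation effect passed its threshold for this gene. Its values were 10.64, 10.22 and 10.56 log2 in infested Holstein-Friesian skin, against 9.61, 9.61 and 9.67 in naive Holstein-Friesian skin. The log2 difference was 0.84 in Holstein-Friesian and 2.85 in Brahman animals, and the Holstein-Friesian minus Brahman difference was -2.01 (adjusted p = 0.019). In Holstein-Friesian skin 1 of its 2 probe sets passed, and not without naive 1 or infested 3 (adjusted p up to 0.0651 over these fits). The test of the breed difference did not pass with the replicate block (adjusted p = 0.1), with the index as a covariate (adjusted p = 0.0666) or in 7 of the 12 fits that left out 1 array (adjusted p up to 0.119), while the difference stayed between -2.09 and -1.88 over those 12 fits. Naive animals were of 12 months in Holstein-Friesian and 18 months in Brahman cattle, so breed and age gap cannot be told apart in this test.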

How the results depend on the processing

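The count of 1206 probe sets was 4589 with array weights, 2022 with the index as a covariate and 4076 when the 2 arrays of lowest index were left out, and 7287 probe sets had no overlap of the 3 and 3 arrays. It ranged from 157 to 2563 over the fits that left out 1 array. With the replicate block it was 1047, and 1397 with the block in the 6 Holstein-Friesian arrays alone. The breed difference called 2 probe sets with cyclic loess, 648 with array weights, 1131 without the 2 arrays of lowest index, none with the replicate block and 0 to 390 over the fits that left out 1 array. None of the 201 named genes changed sign under any alternative run. The replicate block ended 41 of their calls, the 6 arrays alone 35, the block in the 6 arrays 30, a trended and robust prior 18, cyclic loess 10, median centring 7, leaving out the 2 arrays of lowest index 3 and the low-signal filter 2 of those it kept, while array weights and the index covariate ended none. Of 486 list medians recomputed, 402 moved by less than 1 SD of the 3 infested list levels and 41, in 15 lists, had the other sign. The cause of these changes was not tested. With 3 arrays a group and a median standard error of 0.205 log2, differences near that size were not detectable. Larger ones were missed too: in the simulated data 51% of changes of 1 log2 were recovered.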
